A study of Mus musculus with 12 samples.

Results

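The 10 genes studied here belong to the transforming growth factor β (TGFβ) system and were followed in mouse fetal liver alveolar-like macrophages (FLAMs). They are the 3 ligand genes Tgfb1, Tgfb2 and Tgfb3, the receptor genes Tgfbr1 and Tgfbr2, the co-receptor gene Eng, and Ltbp1, Ltbp3, Lrrc32 and Itgb8, which serve the storage and activation of latent TGFβ. They were taken by gene symbol, 10 of the 40847 genes in the count table, and 7 of the 10 passed the filter on low counts and were tested together with 14749 genes in all. FLAMs are macrophages grown from mouse fetal liver, and all 12 libraries came from cells kept in medium with fetal bovine serum and 30 ng/ml of mouse GM-CSF. There were 3 libraries in each of 4 groups. The untreated group received nothing else, the TGFβ group was cultured with 20 ng/ml of human TGFβ1 protein, the Pam3 group was treated for 18 h with 25 ng/ml of Pam3CSK4 (Pam3), which activates TLR2, and the Pam3+TGFβ group received both. The labels call the cells a cell line and give no mouse strain, donor or clone. They do not say whether the 3 libraries of a group came from separate cultures, so p-values measure the spread between these libraries, which may be technical. The added protein is not an RNA, so Tgfb1 counts are those of the cells' own transcript.

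TGFβ is secreted bound to its own propeptide, which keeps it latent. Latent TGFβ binding proteins (LTBPs) tether this complex to the matrix, GARP (the product of Lrrc32) or LRRC33 (the product of Nrros) hold it on the cell surface, and integrins such as αvβ8, whose β chain is the product of Itgb8, release the active ligand. Active TGFβ binds the type II receptor TGFBR2, which phosphorylates the type I receptor TGFBR1, and the type I receptor phosphorylates SMAD proteins that move to the nucleus. Endoglin, the product of Eng, is a co-receptor best known from endothelium. Alveolar macrophages depend on TGFβ for their development and identity.

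Upstream sequence is shown for 3 members whose RNA differed with TGFβ, 2 that rose (Tgfbr1 and Ltbp3) and 1 that fell (Tgfb1), so that it can be read beside their values. It comes from the RefSeq promoter table, built on GRCm38.p6, of which the 250 bases before each listed start were used; only the bases that also lie before the GENCODE M39 gene start are shown, 213 for Tgfb1, 162 for Tgfbr1 and 250 for Ltbp3, written 5′ to 3′ along the gene. Positions are those of the exact and single match of each window to GRCm39, the build of the counts. Capitals mark the SMAD box (CAGAC), the GC box (GGGCGG), the AP-1 site (TGAGTCA) and an ETS/PU.1 core (GAGGAAG), searched on both strands; none of these strings contains another.
Tgfb1, chr7:25386177-25386389, plus strand: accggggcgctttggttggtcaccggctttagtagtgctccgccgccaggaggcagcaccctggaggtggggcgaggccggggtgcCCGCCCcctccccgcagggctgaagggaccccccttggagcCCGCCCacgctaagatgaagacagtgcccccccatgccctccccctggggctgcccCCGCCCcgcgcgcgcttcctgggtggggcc
Tgfbr1, chr4:47352972-47353133, plus strand: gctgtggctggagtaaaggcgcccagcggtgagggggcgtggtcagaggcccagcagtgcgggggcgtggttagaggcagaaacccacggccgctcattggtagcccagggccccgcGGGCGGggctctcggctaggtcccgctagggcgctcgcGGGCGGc
Ltbp3, chr19:5790678-5790927, plus strand: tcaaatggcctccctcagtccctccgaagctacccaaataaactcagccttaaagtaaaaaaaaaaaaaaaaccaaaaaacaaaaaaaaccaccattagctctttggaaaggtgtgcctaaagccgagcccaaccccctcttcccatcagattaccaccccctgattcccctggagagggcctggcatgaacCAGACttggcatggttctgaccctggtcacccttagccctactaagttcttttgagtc
The table held 10 windows for 8 of the members, with Lrrc32 and Tgfb3 not among them. The RefSeq and GENCODE starts differ, so 5 of the 10 windows lie wholly inside the GENCODE gene and are not shown: those of Tgfbr2, Itgb8 and Eng, with 250, 250 and 161 of their 250 bases in annotated exons, and the second windows of Tgfbr1 and Ltbp1, with none. Of these, the whole second Ltbp1 window and 183 bases of the Eng window still lie before the start of the canonical transcript, the main one in GENCODE. A SMAD box was present in 8 of the 10 windows, in 5 of the 5 inside a gene and in 3 of the 5 with bases before the gene start; over all 32851 windows of this length the share was 42.2%. A GC box was found in 2 of the 10, against 32.7% of all windows, and an ETS/PU.1 core in 3 of the 10, against 10.6%. The AP-1 site was found in 0 of the 10 windows and in 4.46% of all windows. Tgfbr1 held 2 GC boxes, 133 and 95 bases before its RefSeq start, and no SMAD box in the window shown; a second window of Tgfbr1, inside the gene, held 1. Ltbp3 held 1 SMAD box 58 bases before its RefSeq start. The Tgfb1 window held 5 GC boxes, 3 of them in the bases shown, and no SMAD box. Matches to such short strings are a description of the sequence, not of binding.

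Library totals ran from 34036650 to 44374115 counts. Levels are given as CPM, counts per 1e6 reads after TMM scaling, as mean ± SD over 3 libraries. The macrophage identity was checked against 10 marker genes, and 10 of 10 had at least 10 counts in every library of a group. Their summed level was 32803 to 36968 CPM untreated, 17553 to 18500 with TGFβ, 35849 to 36990 with Pam3 and 26670 to 27298 with both, most of it from the lysozyme gene Lyz2 (28286 to 32247 CPM untreated and 14731 to 15612 with TGFβ). Single markers differed in direction. Itgam, an integrin gene of many macrophages, was at 1050 to 1144 CPM untreated, 36.6 to 40.2 with TGFβ, 1229 to 1309 with Pam3 and 96.4 to 111 with both. Siglecf, a marker of alveolar macrophages, was at 30.1 to 34.3, 289 to 307, 23.4 to 27.5 and 150 to 159 CPM in the same order, and Adgre1, the F4/80 gene, at 290 to 312, 136 to 158, 470 to 490 and 255 to 283 CPM. Mertk, a receptor for dying cells, was at 216 to 230 CPM untreated and 215 to 232 with TGFβ, and the Fc receptor gene Fcgr1 at 74.2 to 84.6 and then at least 88.8 CPM. The part of these differences in the results on the members was not tested. Reads on 2 ribosomal-RNA-like rows of the table took from 0.107% to 6.73% of the counts, with more than 2% in 5 libraries (untreated replicate 3, TGFβ replicates 1 and 3, Pam3 replicates 2 and 3). Values without these 5 libraries are given where a call changed. Median log2 fold changes over all tested genes lay between -0.019 and 0.0045 in the 5 comparisons.

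Cells cultured with TGFβ had more Tgfbr1 and Ltbp3 RNA and less Tgfb1, Tgfbr2, Lrrc32 and Eng RNA than cells without it, whether or not Pam3 was present. In resting cells 2 of the 7 tested members were called higher and 4 lower with TGFβ; of all tested genes 22.9% were called higher and 28.1% lower. Under Pam3 the counts were again 2 higher and 4 lower, beside 21.5% and 23.8% of all tested genes. These comparisons share no library, and the same genes were called in each. Calls are genes whose p, adjusted by Benjamini-Hochberg, was under 0.05 in the quasi-likelihood test of edgeR fitted to all 12 libraries, and each adjusted p below comes from that test unless another is named. Lrrc32 and Eng passed the count filter only through the groups without TGFβ, and Tgfb2 only through the Pam3+TGFβ group, so their part in these counts was partly set by the filter. Among the 4 members with at least 10 counts in every library, 2 were called higher and 2 lower in each of these comparisons. Under that filter, 3398 of all tested genes were called higher and 3515 lower in resting cells, and 3261 and 2903 under Pam3. In bulk RNA, fewer cells of a type and less RNA per cell cannot be told apart.

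Calls for Pam3 were fewer over all genes, and 2 members without TGFβ and 5 with it were called. Without TGFβ, 1 member was called higher with Pam3 (Tgfbr1) and 1 lower (Tgfbr2), beside 9.62% and 8.66% of all tested genes. In the presence of TGFβ, 2 members were called higher (Tgfb1 and Lrrc32) and 3 lower (Tgfbr1, Tgfbr2 and Ltbp3), beside 20.4% and 18.1%. The interaction, the Pam3 response with TGFβ minus the Pam3 response without it, was called for 2 members, higher for Lrrc32 and lower for Tgfbr1, beside 10.3% and 5.67%. Upper-quartile scaling shifted the balance of calls over all genes, from 3008 higher and 2670 lower to 2477 and 3489 for the Pam3 response with TGFβ, and from 1516 and 836 to 1255 and 1097 for the interaction; the number of members called in each direction stayed as given.

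**Figure D1:**
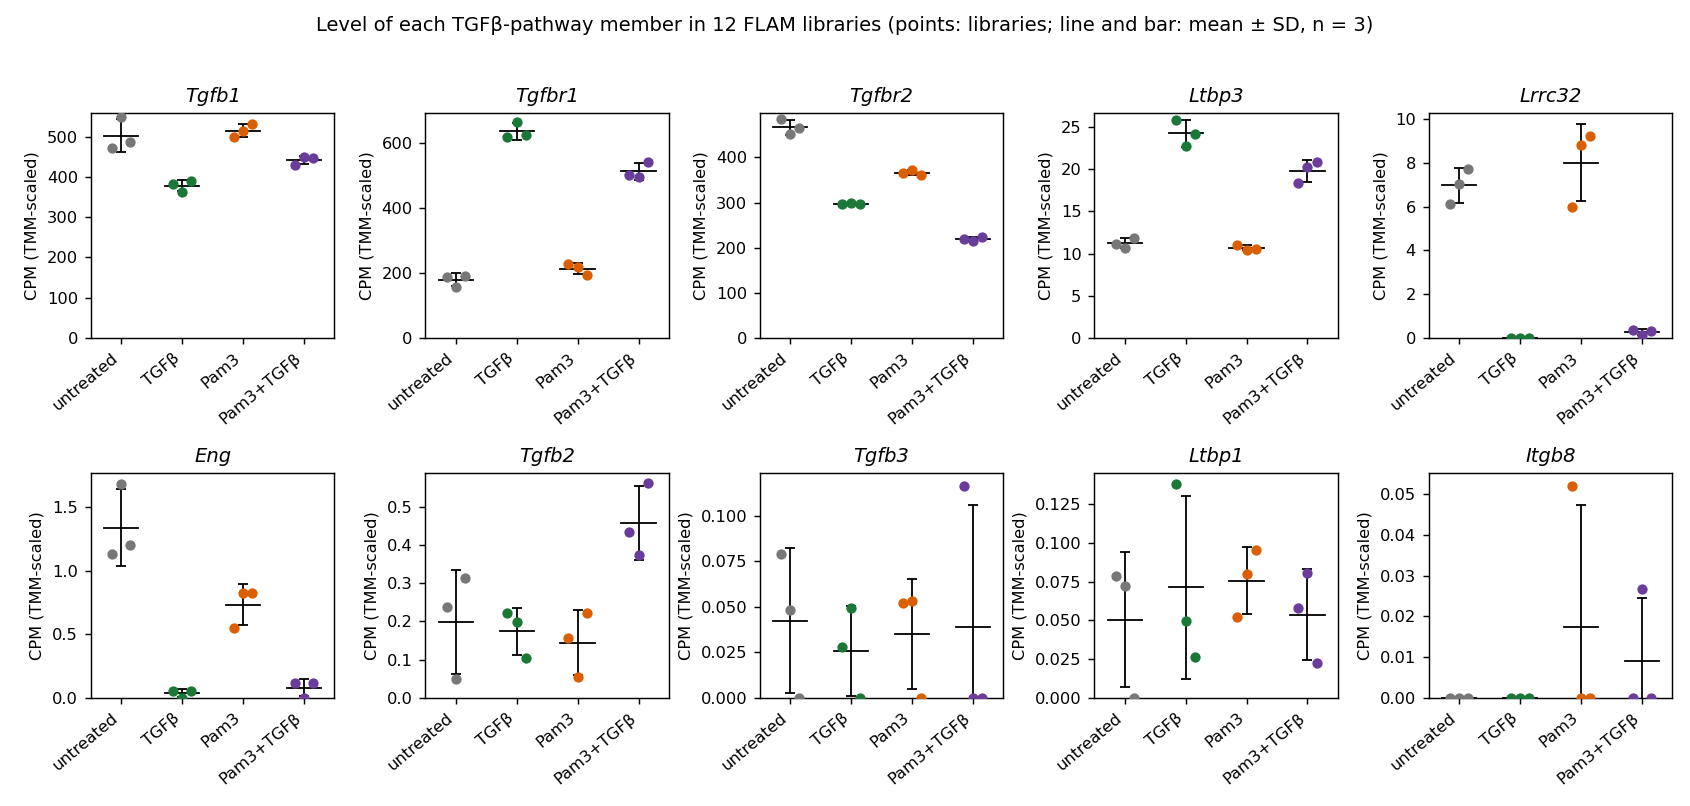
Level of each of the 10 members in each library (points; CPM) by group, with the mean and SD of each group as a line and a bar; each panel has its own linear axis from 0. Tgfb1, Tgfbr1 and Tgfbr2 lie between 156 and 667 CPM in every library, and Lrrc32 is at 0 in the 3 libraries with TGFβ alone.

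**Figure D2:**
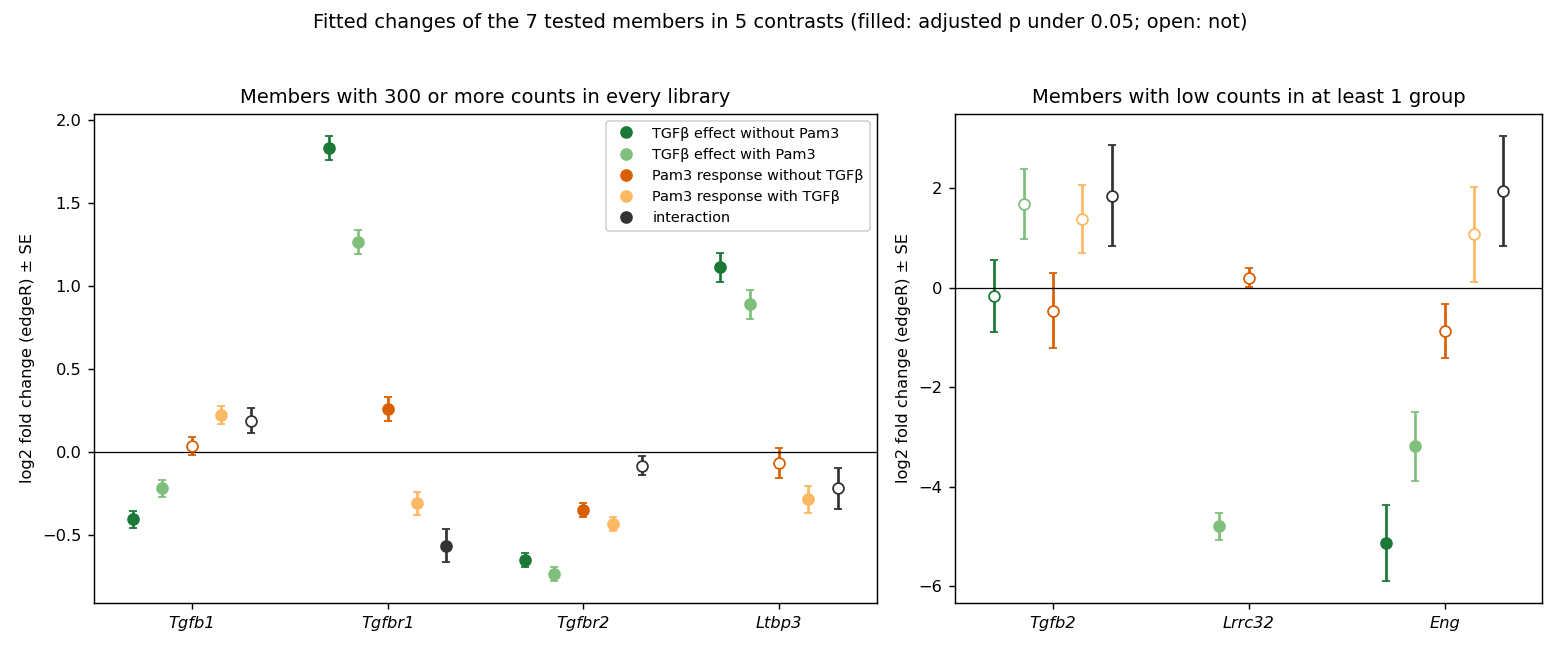
Fitted log2 fold changes ± SE of the tested members in the 5 comparisons (edgeR, 12 libraries), filled where the adjusted p was under 0.05. Tgfbr1 and Ltbp3 lie above 0 and Tgfb1 and Tgfbr2 below 0 in both TGFβ effects; the 3 comparisons of Lrrc32 that use the TGFβ group, where it had no count, are not drawn.

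Among the ligands, nearly all RNA was Tgfb1, and it was lower in cells with TGFβ. Tgfb1 (chr7:25386390-25404506, plus strand, GRCm39) encodes the ligand that immune cells make most. Its counts were 17960, 22806 and 17058 in the untreated libraries and 13855, 14682 and 14873 with TGFβ. With Pam3 they were 19212, 19360 and 16740, and with both 14775, 16762 and 19770. On the CPM scale the untreated libraries held 472, 549 and 486 and the TGFβ libraries 383, 363 and 390, so every untreated library was above every TGFβ library. The Pam3 libraries held 500 to 532 CPM and the Pam3+TGFβ libraries 430 to 449 CPM, again without overlap. Tgfb1 therefore fell with TGFβ by 0.41 log2 units in resting cells (SE 0.0536, adjusted p = 4.83e-07) and by 0.22 under Pam3 (SE 0.0535, adjusted p = 0.00131). With TGFβ present, Pam3 raised Tgfb1 by 0.22 (adjusted p = 0.00158), from 379 ± 14.2 to 442 ± 10.4 CPM. Without TGFβ the Pam3 difference was 0.036 (adjusted p = 0.729), and the interaction of 0.19 did not pass the test (adjusted p = 0.103). In the 7 libraries with a low ribosomal-RNA-like share, the fall under Pam3 was -0.17 and lost its call (adjusted p = 0.129).

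Tgfb2 and Tgfb3, the ligands of developing and mesenchymal tissue, were at the edge of detection. Tgfb2 (chr1:186354985-186438294, minus strand) had 9, 2 and 11 counts in the untreated libraries, 8, 8 and 4 with TGFβ, 6, 2 and 7 with Pam3, and 15, 14 and 25 with both. The Pam3+TGFβ libraries, at 0.375 to 0.565 CPM, lay above all 9 others, which reached at most 0.314 CPM. The TGFβ effect under Pam3 was 1.68 log2 units (SE 0.707) and missed the threshold (adjusted p = 0.0562). That value fell on the other side of the threshold with DESeq2 (adjusted p = 0.0494), in the fit of the 6 libraries compared (adjusted p = 0.0286) and without untreated replicate 2 (adjusted p = 0.0489). The Pam3 difference with TGFβ present was 1.38 (adjusted p = 0.117), and in resting cells the TGFβ difference was -0.17 (adjusted p = 0.867). Tgfb3 (chr12:86102756-86126301, minus strand) had 16 counts over the 12 libraries, at most 4 in 1 library and 0 in 5. It did not pass the count filter and was tested only without it. Per kilobase of exon, Tgfb1 made up between 99.9% and 100% of the ligand reads in each library.

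The receptors moved in opposite directions: Tgfbr1 was higher and Tgfbr2 lower in cells with TGFβ. Tgfbr1 (chr4:47353134-47414931, plus strand) encodes the type I receptor kinase that acts on SMADs. It had 7199, 6483 and 6716 counts untreated and 22334, 27019 and 23913 with TGFβ, or 179 ± 19.9 and 637 ± 26.3 CPM. With Pam3 it had 8757, 8234 and 6144 counts, and with both 17245, 18547 and 24034, or 214 ± 16.8 and 514 ± 25.4 CPM. The lowest library with TGFβ, at 497 CPM, lay above the highest without it, at 228 CPM. Tgfbr1 rose with TGFβ by 1.83 log2 units in resting cells (SE 0.0719, adjusted p = 2.02e-14), a 3.56-fold difference, and by 1.26 under Pam3 (SE 0.0708, adjusted p = 7.71e-12), a 2.40-fold difference.

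Pam3 acted on Tgfbr1 in opposite directions with and without TGFβ. Without TGFβ it rose by 0.26 (SE 0.0701, adjusted p = 0.0133), and with TGFβ it fell by 0.31 (SE 0.0696, adjusted p = 0.00126). The interaction was -0.57 (SE 0.0988, adjusted p = 0.000319) and was called in all 12 fits that left out 1 library, between -0.63 and -0.47. The rise without TGFβ depended on single libraries: it was 0.17 without untreated replicate 2, where it was still called, and 0.40 in the 7 libraries with a low ribosomal-RNA-like share. It was 0.21 without Pam3 replicate 1 (adjusted p = 0.0768), 0.24 without Pam3 replicate 2 (adjusted p = 0.0529) and 0.26 in the fit of the 6 libraries compared (adjusted p = 0.0513). On the CPM scale the Pam3 libraries held 228, 219 and 195 and the untreated libraries 189, 156 and 192, so the groups did not overlap.

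Tgfbr2 (chr9:115913361-116004800, minus strand) encodes the type II receptor, which binds the ligand first. Its counts were 18413, 18753 and 16339 untreated, 10734, 12119 and 11297 with TGFβ, 14033, 14000 and 11375 with Pam3, and 7554, 8029 and 9943 with both. The group levels were 467 ± 16.6, 297 ± 1.67, 366 ± 5.20 and 220 ± 4.81 CPM in that order, and no group overlapped another. TGFβ lowered it by 0.65 log2 units in resting cells (SE 0.0421, adjusted p = 1.20e-12) and by 0.74 under Pam3 (SE 0.0423, adjusted p = 1.46e-13). Pam3 also lowered it. The log2 fold change was -0.35 without TGFβ (adjusted p = 6.63e-07), and where TGFβ was present it was -0.44 (adjusted p = 4.44e-09). Its interaction of -0.084 (SE 0.0594) did not pass the test (adjusted p = 0.407). Tgfbr2 was thus the one tested member called in the same direction in all 4 pairwise comparisons.

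The balance between the receptor transcripts was compared per kilobase of exon, since the genes differ in length. Tgfbr1 over Tgfbr2 was 0.519, 0.459 and 0.546 in the untreated libraries and 2.76, 2.96 and 2.81 in the TGFβ libraries. It was 0.829, 0.781 and 0.717 with Pam3 and 3.03, 3.07 and 3.21 with both. On this scale Tgfbr2 RNA was the more abundant of the pair in every library without TGFβ and Tgfbr1 RNA in every library with it. That order rests on the GENCODE lengths of the genes, while the annotation used for the counts is not given. The group means were 0.508 ± 0.0444, 2.84 ± 0.103, 0.776 ± 0.0559 and 3.10 ± 0.0943, and the Pam3 libraries lay above the libraries without Pam3 in either TGFβ condition. No test was made on the ratio itself. Using the longest annotated transcript in place of all exons gave means of 0.550, 3.08, 0.840 and 3.36, in the same order.

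**Figure D3:**
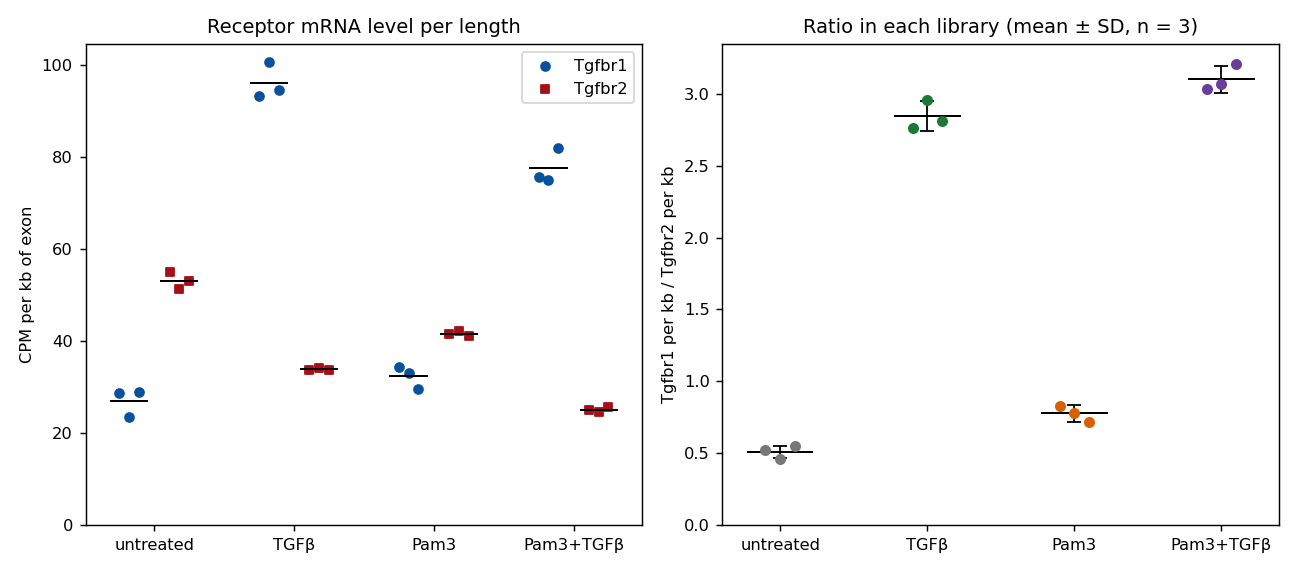
Left, levels of Tgfbr1 and Tgfbr2 in CPM per kilobase of exon in the 12 libraries (points; lines, group means); right, their ratio in each library with the mean and SD of each group. In the ratio the 6 libraries with TGFβ lie between 2.76 and 3.21 and the 6 without it between 0.459 and 0.829.

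Eng, the co-receptor, was low without TGFβ and nearly absent with it. Eng (chr2:32535543-32574661, plus strand) had 43, 70 and 42 counts in the untreated libraries and 2, 0 and 2 with TGFβ. It had 21, 31 and 26 counts with Pam3 and 4, 0 and 5 with both. The ratio of the untreated to the TGFβ level was 38.8, with a 95% counting interval from 14.9 to 144. Eng fell with TGFβ in resting cells (log2 fold change -5.13, SE 0.759, adjusted p = 3.07e-06) and under Pam3 (log2 fold change -3.19, SE 0.688, adjusted p = 0.000422). Pam3 alone gave 0.732 ± 0.161 CPM against 1.34 ± 0.302 untreated, without overlap between the groups, and this difference did not pass the test (log2 fold change -0.87, adjusted p = 0.311). With TGFβ present the Pam3 ratio was 2.23 with a counting interval from 0.622 to 9.90, a difference not detectable at this depth.

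Other endothelial markers were looked at beside Eng. Of 8 listed, 4 had 10 counts or more in every library of a group (Cdh5, Kdr, Pecam1 and Vwf), and Emcn was at 0 in all libraries. Their summed level was 288 to 303 CPM untreated, 181 to 197 with TGFβ, 218 to 223 with Pam3 and 122 to 137 with both, and Vwf, the von Willebrand factor gene, gave nearly all of it (284 to 300.3 CPM untreated and 178 to 194 with TGFβ). Cdh5, the VE-cadherin gene, was at 0.794 to 1.06 CPM untreated and 0 to 0.0988 with TGFβ, and Kdr, a VEGF receptor gene, at 0.627 to 1.08 and 0 to 0.221 CPM. These 3 were thus lower with TGFβ, as Eng was, while Pecam1, which macrophages also express, was at 0.579 to 1.25 and 2.35 to 2.62 CPM. The part of these markers in the Eng result was not tested. Eng shares 860 bases, 11.0% of its exon bases, with exons of Fpgs on the opposite strand, and the strand setting of the counting is not given in the sources used here. In TGFβ replicate 2 and Pam3+TGFβ replicate 2, Eng had 0 counts while Fpgs was at 16.8 and 19.1 CPM.

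Of the genes that hold latent TGFβ, Ltbp3 rose and Lrrc32 fell with TGFβ. Ltbp3 (chr19:5790932-5808669, plus strand) encodes a latent TGFβ binding protein. It had 424, 443 and 416 counts untreated, 934, 919 and 922 with TGFβ, 425, 394 and 333 with Pam3, and 632, 755 and 923 with both. The corresponding levels were 11.2 ± 0.605, 24.2 ± 1.58, 10.7 ± 0.315 and 19.8 ± 1.28 CPM, and every library with TGFβ lay above every library without it. Ltbp3 rose with TGFβ by 1.11 log2 units in resting cells (SE 0.0863, adjusted p = 4.26e-11) and by 0.89 under Pam3 (SE 0.0874, adjusted p = 4.13e-09). With TGFβ present it fell by 0.29 with Pam3 (SE 0.0832, adjusted p = 0.00719), and without TGFβ the Pam3 difference was -0.068 (adjusted p = 0.686). The interaction of -0.22 did not pass the test (adjusted p = 0.265). In the 7 libraries with a low ribosomal-RNA-like share the Pam3 difference with TGFβ was -0.21 and lost its call (adjusted p = 0.283).

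Ltbp1 and Itgb8 did not pass the count filter and were tested only without it. Ltbp1 (chr17:75312519-75699507, plus strand), another latent TGFβ binding protein gene, had 28 counts over the 12 libraries and at most 5 in any of them. Itgb8 (chr12:119121748-119202584, minus strand) had 3 counts in all, 2 in Pam3 replicate 1 and 1 in Pam3+TGFβ replicate 2. A level of 3 counts corresponds to between 0.0678 and 0.0953 CPM in these libraries, the highest level compatible with no count in a library.

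Lrrc32 (chr7:98138490-98151388, plus strand), the GARP gene, went from a clear signal to none with TGFβ. It had 233, 293 and 271 counts in the untreated libraries and 0, 0 and 0 in the TGFβ libraries. With Pam3 it had 230, 333 and 290 counts, and with both 13, 5 and 15. The groups with and without TGFβ were fully separate, and the low counts with both treatments all lay above the 0 counts of TGFβ alone. Against a floor of 3 counts per library, Lrrc32 was at least 83.9-fold lower with TGFβ in resting cells (adjusted p = 3.31e-14). Under Pam3 it went from 8.01 ± 1.77 to 0.284 ± 0.131 CPM, or -4.80 in log2 units (SE 0.275, adjusted p = 7.19e-13).

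Pam3 left Lrrc32 at 8.01 CPM against 6.97 ± 0.803 CPM untreated, a difference of 0.20 that did not pass the test (adjusted p = 0.552). With TGFβ present Lrrc32 was at least 3.42-fold higher with Pam3 (adjusted p = 2.13e-05), and the interaction was called (adjusted p = 0.000203). In a fit of only the 6 libraries cultured with TGFβ, Lrrc32 did not pass the count filter, so these calls rest on the fit of all groups. The level in the Pam3+TGFβ group, which rests on 33 counts in all, was still far below that of cells without TGFβ. GARP is best known from regulatory T cells and platelets, so their markers were counted. Of 7 T cell markers only Cd2 had 10 counts or more in every library of a group, and of 7 megakaryocyte or platelet markers 3 did (Pf4, Ppbp and Gp1ba). Cd3e and Cd3g were at 0, and Foxp3, the regulatory T cell factor, was at 0.144 to 0.200 CPM untreated and 0.0786 to 0.0988 with TGFβ. With Pam3 Foxp3 was at 0.104 to 0.265 CPM, and with both treatments at 0.0226 to 0.378 CPM. The summed T cell level was 3.73 to 4.51 CPM untreated, 1.23 to 1.80 with TGFβ, 1.77 to 2.31 with Pam3 and 0.474 to 0.844 with both. The summed platelet level was 8.31 to 10.3, 3.33 to 4.79, 14.5 to 15.3 and 2.64 to 3.27 CPM in the same order. Its genes differed in direction: from untreated to TGFβ, Ppbp was at 5.63 to 6.70 and then at most 0.148 CPM, Pf4 at 1.05 to 2.31 and then at most 0.367 CPM, and Gp1ba at 1.42 to 2.07 and then 2.69 to 4.32 CPM. The part of these markers in the Lrrc32 result was not tested.

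Nrros, whose product LRRC33 holds latent TGFβ on macrophages and microglia, was named with Lrrc32 because the proteins have the same task. It had 12744, 14366 and 11312 counts untreated and 3083, 3321 and 3200 with TGFβ, or 334 ± 11.6 and 83.7 ± 1.66 CPM. With Pam3 it was at 332 ± 8.54 CPM and with both at 110 ± 2.41 CPM. Nrros fell with TGFβ by 2.00 log2 units in resting cells (SE 0.0432, adjusted p = 2.78e-22) and by 1.59 under Pam3 (SE 0.0425, adjusted p = 2.38e-20). With TGFβ present Pam3 raised it by 0.40 (SE 0.0423, adjusted p = 2.39e-08), and the interaction was 0.41 (SE 0.0590, adjusted p = 1.29e-05). Without TGFβ the Pam3 difference was -0.0090 (adjusted p = 0.920). Per kilobase of exon, Nrros stood at 43.9 CPM and Lrrc32 at 1.47 CPM in untreated cells, so Nrros was the more abundant of these presenters. Both were lower with TGFβ, and both were higher with Pam3 where TGFβ was present.

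The order of the members' levels was taken per kilobase of exon. In untreated cells Tgfb1 stood first at 98.9 ± 7.99, then Tgfbr2 at 53.1 and Tgfbr1 at 27.0 CPM per kilobase, and the order was the same with Pam3 (101, 41.6 and 32.3). With TGFβ, Tgfbr1 (96.2) stood above Tgfb1 (74.5) and Tgfbr2 (33.8), and with both the order was Tgfb1 (86.9), Tgfbr1 (77.6) and Tgfbr2 (25.0). Tgfb1 and Tgfbr1 change places in the TGFβ group when the longest transcript is used (147 and 107), since the union of Tgfb1 exons is 5083 bases and its longest transcript 2573. Below these 3 came Lrrc32 and Ltbp3 in the groups without TGFβ, at 1.47 and 1.20 CPM per kilobase untreated, and their order also turned with the longest transcript. The other 5 members were at most at 0.172 CPM per kilobase in any group, and among Tgfb3, Ltbp1 and Itgb8 the order rests on a few counts.

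Further genes of the pathway were counted from 3 lists, none of which holds a member. Of 33 genes of latent TGFβ storage and activation 23 were tested. In resting cells 6 of them (26.1%) rose and 14 (60.9%) fell with TGFβ, beside 22.9% and 28.1% of all tested genes, with a median log2 fold change of -0.36 against -0.0084 over all tested genes. The share that rose was thus near that of all genes. Of those that fell, Igf2r, Thbs1, Mmp9 and Itgb3 had 2, 11, 0 and 27 counts over the TGFβ libraries. These genes passed the count filter through the groups without TGFβ, so their part in the calls of this list was partly set by the filter. Under Pam3, 7 rose and 9 fell (30.4% and 39.1%, beside 21.5% and 23.8% of all tested genes; median -0.021). The interaction was called higher for 10 and lower for 1 (43.5% and 4.35%, beside 10.3% and 5.67%). With Pam3 alone 6 rose and 4 fell (26.1% and 17.4%, beside 9.62% and 8.66%), and with Pam3 in the presence of TGFβ 11 rose and 2 fell (47.8% and 8.70%, beside 20.4% and 18.1%). Those that fell in resting cells included the proteases and receptors Plau, Plaur, Mmp2, Mmp9 and Mmp14 and the integrin genes Itgb1 and Itgb3, while Itgav and Itgb5 rose.

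Igf2r, whose product binds the latency peptide and takes up mannose-6-phosphate proteins, fell furthest among the genes named from this list. Its level was 38.9 ± 2.62 CPM untreated and 39.7 ± 0.379 with Pam3, but TGFβ libraries had 0, 2 and 0 counts and Pam3+TGFβ libraries 8, 1 and 14. The ratio of untreated to TGFβ was 2228, with a counting interval from 616 to 18399 (adjusted p = 4.27e-18). Thbs1, the gene of thrombospondin 1, which can activate latent TGFβ, fell from 4.21 ± 0.216 to 0.10 ± 0.131 CPM with TGFβ (adjusted p = 0.00084). Pam3 raised Thbs1 to 22.8 ± 14.5 CPM, between 12.7 and 39.5 in single libraries (adjusted p = 0.00586), and with both treatments only 6 counts were found. Mmp14, a membrane-bound protease, fell with TGFβ from 11.0 ± 2.40 to 1.54 ± 0.897 CPM, yet was at 55.2 ± 5.67 with Pam3 and 51.3 ± 2.33 CPM with both. Its interaction was 2.71 log2 units (SE 0.390, adjusted p = 0.00124).

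Other genes of this list moved the other way or less. Itgav, the αv integrin chain, rose with TGFβ by 0.16 in resting cells (adjusted p = 0.0456), where the groups overlapped, and by 0.39 under Pam3 (adjusted p = 3.06e-05). Furin, the protease that cuts the TGFβ propeptide, fell by 0.20 with TGFβ in resting cells (adjusted p = 0.00202) and by 0.38 with Pam3 alone (adjusted p = 3.99e-06). In the libraries with both, Furin was at 241 to 246 CPM. The genes Itgb6, Pcsk5, Pcsk6, Plat and Fbn2 had no count in any library.

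Of 29 further receptors, co-receptors and receptor regulators 26 were tested. With TGFβ in resting cells 8 (30.8%) rose and 9 (34.6%) fell, shares near the 22.9% and 28.1% of all tested genes, with a median of -0.071. Under Pam3, 8 rose and 7 fell (30.8% and 26.9%, near the 21.5% and 23.8% of all tested genes; median 0.049). The interaction was called higher for 4 and lower for 1 (15.4% and 3.85%, beside 10.3% and 5.67%). With Pam3 alone 3 rose and 2 fell (11.5% and 7.69%, near the 9.62% and 8.66% of all), and in the presence of TGFβ 12 rose and 3 fell (46.2% and 11.5%, beside 20.4% and 18.1%). Pmepa1, which encodes an inhibitor of SMAD activation, rose from 2.80 ± 0.400 to 164 ± 3.81 CPM in resting cells (log2 fold change 5.88, SE 0.112, adjusted p = 1.80e-18). Bambi, a pseudoreceptor gene, rose by 1.35 (adjusted p = 1.60e-08). Cd109, a TGFβ co-receptor gene, fell by 1.99 (adjusted p = 1.10e-05), and Acvrl1, the type I receptor ALK1 with which endoglin works, fell by 1.26 (adjusted p = 7.35e-14). Tgfbr3, the betaglycan gene, had 71 counts over the untreated libraries and 3 over the TGFβ libraries, a ratio of 23.7 with a counting interval from 7.79 to 118 (adjusted p = 0.000696). The untreated libraries ran from 7 to 48 counts (0.616 ± 0.568 CPM), and the ratio of mean CPM went from 23.5 to 11.2 without untreated replicate 1. Tgfbr3 passed the count filter through the groups without TGFβ, so its call was partly set by the filter. Acvr1b, an activin receptor gene, had the largest called positive interaction here (0.51, adjusted p = 3.75e-06), and Acvr2b the one negative (-0.55, adjusted p = 0.0382).

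Of 14 SMAD and SMAD repressor genes 13 were tested. With TGFβ in resting cells 7 (53.8%) rose and 2 (15.4%) fell, beside 22.9% and 28.1% of all tested genes, with a median of 0.48 against -0.0084. Under Pam3, 8 rose and 3 fell (61.5% and 23.1%, beside 21.5% and 23.8%; median 0.44). The interaction was called higher for 1 and lower for 1 (7.69% each, beside 10.3% and 5.67%). With Pam3 alone 3 rose (23.1%, beside 9.62%) and no call was lower, and in the presence of TGFβ 1 rose and 4 fell (7.69% and 30.8%, beside 20.4% and 18.1%). Smad7, which encodes the inhibitory SMAD that blocks the type I receptor, rose from 2.42 ± 0.201 to 12.1 ± 0.726 CPM in resting cells (log2 fold change 2.33, adjusted p = 1.68e-14) and from 2.98 ± 0.153 to 11.9 ± 0.125 CPM under Pam3 (1.99, adjusted p = 3.11e-13). Of the repressors, Tgif2 rose by 2.87 (adjusted p = 2.81e-13), Skil by 1.47 (adjusted p = 7.37e-18) and Ski by 1.11 (adjusted p = 3.04e-16) in resting cells. Smad3, a SMAD that TGFBR1 phosphorylates, was low and fell by 1.71, from 74 counts over the untreated libraries to 22 over the TGFβ libraries (adjusted p = 0.0218). Smad3 passed the count filter through the groups without TGFβ, so its call was partly set by the filter. Tgif1 had the called positive interaction (0.52, adjusted p = 8.36e-05) and Ski the called negative one (-0.26, adjusted p = 0.00642).

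**Figure D4:**
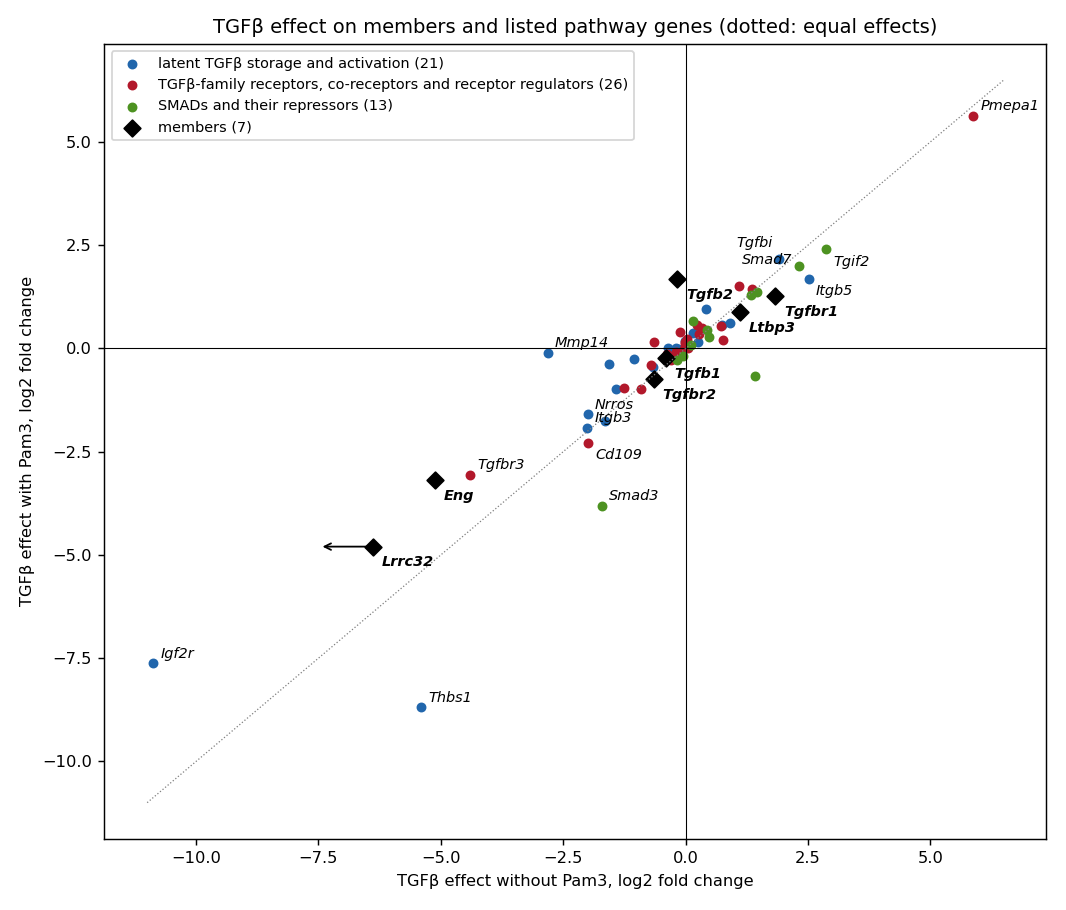
TGFβ effect without Pam3 (horizontal axis) against TGFβ effect with Pam3 (vertical axis), both as fitted log2 fold changes, for the 7 tested members (diamonds) and tested genes of the 3 lists (circles); the dotted line marks equal effects. Pmepa1 lies far up and Igf2r, Thbs1, Lrrc32 and Eng far down in both; Lrrc32 is drawn on the horizontal axis at its lower bound, with an arrow, and Mmp9, at 0 in both groups with TGFβ, is left out.

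The genes whose log2 CPM followed each member most closely over the 12 libraries are given as a description; the 4 groups and the scaling are shared by all genes. Tgfbr1 was closest to Scd2 (Pearson r = 0.996), Pakap and Cd164, and Ltbp3 to Scarb2 (0.992), Acat2 and Ptp4a1. Tgfbr2 was closest to Arhgap26 (0.995), Slc40a1 and Epas1, and Tgfb1 to Cfl1 (0.984), Emp3 and Actn4. Lrrc32 was closest to Atp6v1a (0.996), Gripap1 and Ogdh, and Eng to Tbcd (0.983), Coro7 and Mpst. Tgfb2 had no gene with r over 0.9 and was closest to Zhx2 (0.837). For the other 6 tested members, between 4.41% and 9.26% of the genes compared had r over 0.9.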

How the data were processed

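The members and the pathway and marker lists were chosen with earlier results of these data known, so no list counts as independent evidence. The deposited counts are whole reads per gene symbol; per the submitters' processing notes, the authors used FastQC 0.11.7, Bowtie2 2.4.1, featureCounts of Subread 2.0.0 and DESeq2 1.36.0 in R 4.2.1 on GRCm39. The annotation, the strand setting and the treatment of multiply aligned reads are not given in the sources used here. Bowtie2 does not split reads over introns, so junction reads can be lost. The second deposited table holds a signal, each count divided by 1 constant per library, and served only an alternative.

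Counts were filtered with filterByExpr (minimum count 10), scaled with TMM and tested with the quasi-likelihood test of edgeR 4.0.16 (robust) in R 4.3.3 on all 12 libraries with 4 group means. The Benjamini-Hochberg adjustment ran over all 14749 tested genes. The SE is the size of the log2 fold change divided by the square root of F. The procedure was tested on simulated data. A group with no count was set to a floor of 3 counts per library; for groups with few counts the ratio has an exact 95% counting interval, and floors and intervals cover counting error only, since reads carry no molecular identifiers. All pairs of replicates differed beyond sampling noise (9.99 to 220 as chi-square over its degrees of freedom). Pairs of a library above and a library below 2% ribosomal-RNA-like reads gave 133 to 220, and the other pairs 9.99 to 28.0. The ribosomal-RNA-like rows were included, and their part in these values was not tested.

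From each list were named the up to 4 genes with the largest called TGFβ effect in resting cells and the up to 2 with the largest called interaction, given that each library of the higher group had 10 counts or more, plus Nrros, Itgav, Thbs1, Furin, Tgfbr3 and Smad7; genes listed beside their counts illustrate the lists only, and 1 gene that this rule names is not reported here or drawn. Pattern neighbours are the 3 genes with the highest r among genes of mean log2 CPM of 1 or more with a gene name. Positions and lengths come from GENCODE M39. Fibroblast, hepatocyte, mast cell and B cell markers had 2 of 8, 2 of 6, 1 of 5 and 0 of 4 genes with 10 counts or more in every library of a group. Alternatives were DESeq2-type and upper-quartile scaling, DESeq2 1.42.0, limma 3.58.1 on log2 of the authors' values plus 1 or 0.5, other filters, a replicate block, fits of 6 libraries, a minimum log2 fold change of 1, and each library left out in turn. A covariate for ribosomal-RNA-like reads and a fit of the 7 libraries with under 2% of them were chosen after seeing the data.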

Additional observations from a re-analysis of the deposited data

Results flagged for a closer look

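The Pam3 response of 2 members differed between cells with and without TGFβ by the test of the interaction in edgeR. For Tgfbr1 the interaction was -0.57 on the log2 scale (SE 0.0988, adjusted p = 0.000319), with levels of 179, 214, 637 and 514 CPM in the untreated, Pam3, TGFβ and Pam3+TGFβ groups. For Lrrc32 the fitted interaction was 6.24 (SE 1.09, adjusted p = 0.000203). That value rests on the TGFβ group, where Lrrc32 had no count, so it depends on the prior count of the fit and is not a bound.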

How the results depend on the processing

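Over the alternatives, 759 of the recomputed log2 fold changes of members kept their direction and side of the threshold, 5 lost a call, 3 gained one and 12 changed sign, the last all for differences that were not called. A value with no adjusted p in an alternative was counted as kept where its sign was the same, as for Tgfb2. The cause of a changed call was not tested.

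With a minimum log2 fold change of 1, members called went from 2 to 0 (Pam3 response without TGFβ), 5 to 1 (Pam3 response with TGFβ), 6 to 3 (TGFβ effect without Pam3), 6 to 3 (TGFβ effect with Pam3) and 2 to 1 (interaction), and all genes called fell to 91, 568, 1188, 981 and 203 in that order. In the fit of the 6 libraries compared, 1 member was called for the Pam3 response without TGFβ and 4 for that with TGFβ, where Lrrc32 did not pass the filter, so its call there rests on a fit that includes other groups. All genes called in these fits of 6 libraries were 2313 without TGFβ and 6135 with it. Leaving out each library gave 1 to 2 members called for the Pam3 response without TGFβ, with 1 without Pam3 replicate 1 or 2. With at least 10 counts in every library, where Lrrc32, Eng and Tgfb2 are not tested, 1 member was called for the interaction, 4 for the Pam3 response with TGFβ, and 4 (2 higher and 2 lower) for each TGFβ effect. In the 7 libraries with a low ribosomal-RNA-like share, where the TGFβ and Pam3 groups have 1 library each and are assumed to vary like the others, all genes called were 1173 for the Pam3 response without TGFβ, 3370 for the Pam3 response with TGFβ and 802 for the interaction.

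The differences that changed sign were these. For the Pam3 response without TGFβ, the low-share libraries gave -0.025 for Tgfb1, 0.15 for Tgfb2, 0.026 for Ltbp3 and -0.13 for Lrrc32, and leaving out each library gave -0.0020 to 0.11 for Tgfb1 and -0.94 to 0.0097 for Tgfb2. For the TGFβ effect without Pam3, Tgfb2 was 0.041 and 0.076 with limma on log2 of the authors' values plus 1 and plus 0.5, 0.51 in the low-share libraries and -0.64 to 0.31 over the fits that left out 1 library.

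Libraries of the same replicate number are not shown to be paired: r of their deviations ran from -0.14 to 0.30 over 12 pairs, 5 of them over 0.1, and the best match had the same number in 11 of 24 cases. Each best match was picked among the 3 libraries of the other group. The part of the ribosomal-RNA-like share in these values of r was not tested. With the replicate number as a block, members called were 2, 5, 6, 6 and 2, as without it, and all genes called were 2751, 5714, 7562, 6736 and 2393. Depth limits Tgfb3, Ltbp1 and Itgb8, which did not pass the count filter, and the low groups of Tgfb2, Eng and Lrrc32. Without the filter all 10 members were tested, and the numbers called were 2, 5, 6, 6 and 2, as with it. All genes called without the filter were 2718, 5612, 7556, 6674 and 2423 in the same order.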
